A study of Mus musculus with 12 samples.

Results

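TRBV19 is a mouse T-cell receptor beta variable segment, known in the older nomenclature as Vbeta6. All productive TRB contigs carrying the deposited V label TRBV19 were taken from 6 single-cell T-cell receptor libraries, which gave 632 of 7257 productive TRB contigs, in 631 of 7056 cells with a productive chain. The libraries were made from CD45+ immune cells sorted from C57BL/6 mouse brain, CD45 being the surface protein common to all white blood cells. There were 2 libraries from the parenchyma of non-transgenic (NonTg) mice, 2 from the parenchyma of 5xFADTg mice, and 1 from the meninges of each genotype. 5xFAD mice are a transgenic model of Alzheimer's disease whose transgenes are under the Thy1 promoter, which drives them in neurons. The labels give neither age nor sex, nor how many mice stand behind a library, so a p-value between libraries measures only the spread between these libraries. The gene expression libraries of the series were not analysed here, and the identity of the cells therefore rests on the receptor alone.

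A T cell builds its beta chain by joining a V, a D and a J segment, and the junction, which loses germline bases and gains untemplated ones, encodes the third complementarity-determining region (CDR3) that contacts the antigenic peptide. The alpha chain is built from V and J segments in the same way, and both chains together form the receptor that daughter cells of a clone share. Mouse Vbeta6 T cells are known for their deletion by certain endogenous retroviral superantigens, and TRBV19 is, beside the TRBV13 group, a usual beta segment of mucosal-associated invariant T (MAIT) cells. Invariant natural killer T (iNKT) cells of the mouse pair a TRAV11-TRAJ18 alpha chain mainly with TRBV13, TRBV29 or TRBV1.

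Trbv19 lies on the plus strand of mouse chromosome 6, from 41178375 to 41179048 in the GRCm38 build, where it has 2 exons, the second of which (41178746 to 41179048) encodes most of the V region. Of the 631 cells, 541 held 1 TRB chain and 90 held 2 TRB chains, 1 of these with both chains from TRBV19. Among the 541 cells, 110 had no productive TRA chain, and the 431 paired cells formed 215 of the 3108 clonotypes found. A clonotype is a combination of a beta and an alpha CDR3 nucleotide sequence within a library. No contig carried a joint V label that included TRBV19, and no TRBV19 CDR3 nucleotide sequence stood under another V label. TRBV19 itself was chosen by its share of clonotypes and its large clones in these same libraries, so its share, rank and clone sizes are a description.

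The CDR3 sequences below are those of the 5 TRBV19 clonotypes with most cells among those found in both tissues, of 1 beta chain found with 2 spellings, and of a beta chain found together with another beta chain. Each clone is named by its TRBJ segment and its alpha segments. The sequences run 5′ to 3′ as DNA, with bases that match the germline end of TRBV19 or of the J segment in lower case and the junctional bases between them in capitals.
Germline TRBV19 part of CDR3: tgtgccagcagtatag
TRBJ2-1 with TRAV6-5-TRAJ30: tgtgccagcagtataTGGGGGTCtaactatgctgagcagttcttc
TRBJ2-7 with TRAV9-4-TRAJ56: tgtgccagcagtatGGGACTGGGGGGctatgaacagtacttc
TRBJ2-1 with TRAV16-TRAJ33: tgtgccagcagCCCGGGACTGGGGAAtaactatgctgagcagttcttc
TRBJ1-2 with TRAV9-1-TRAJ18: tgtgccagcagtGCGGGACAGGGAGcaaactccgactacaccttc
TRBJ1-2 with TRAV5-1-TRAJ33: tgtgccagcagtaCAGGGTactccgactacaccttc
TRBJ2-7 with TRAV6-7-TRAJ53, first spelling: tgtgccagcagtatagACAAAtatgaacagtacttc
TRBJ2-7 with TRAV6-7-TRAJ53, other spelling: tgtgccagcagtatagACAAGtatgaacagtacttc
TRBJ1-1 beside a TRBV20 chain: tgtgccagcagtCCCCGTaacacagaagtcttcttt
The germline part is 16 bases long and encodes cysteine, alanine, 2 serines and isoleucine, so these chains share their first residues and differ from the junction onwards.

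TRBV19 was among the more used beta segments, with a mean share of 7.05% ± 1.12 (SD, n = 6 libraries) of clonotypes. In NonTg parenchyma it made up 47 of 606 clonotypes in library 1 (7.76%, 95% exact interval 5.75 to 10.2) and 35 of 449 in library 2 (7.80%, 5.49 to 10.7). In 5xFADTg parenchyma it made up 32 of 657 in library 1 (4.87%, 3.36 to 6.81) and 56 of 784 in library 2 (7.14%, 5.44 to 9.18). The meninges gave 22 of 286 in NonTg (7.69%, 4.88 to 11.4) and 23 of 326 in 5xFADTg (7.06%, 4.52 to 10.4). All libraries but 5xFADTg parenchyma library 1 thus lay close together and that library stood lowest, with an interval that overlapped those of all others. The intervals cover counting error only. TRBV19 held rank 3 to 5 among the 21 or 22 TRBV labels in 5 libraries and rank 10 in 5xFADTg parenchyma library 1. By mean share it ranked 4, between TRBV13-3 (7.53% ± 1.26, SD, n = 6) and TRBV13-1 (6.86% ± 1.20, SD, n = 6), and neither neighbour was separated from it by more than the spread between libraries. The labels whose shares were nearest to those of TRBV19 over the 6 libraries were TRBV3, TRBV13-1 and TRBV13-3, with mean absolute differences of 1.14, 1.21 and 1.48 percentage points.

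**Figure D1:**
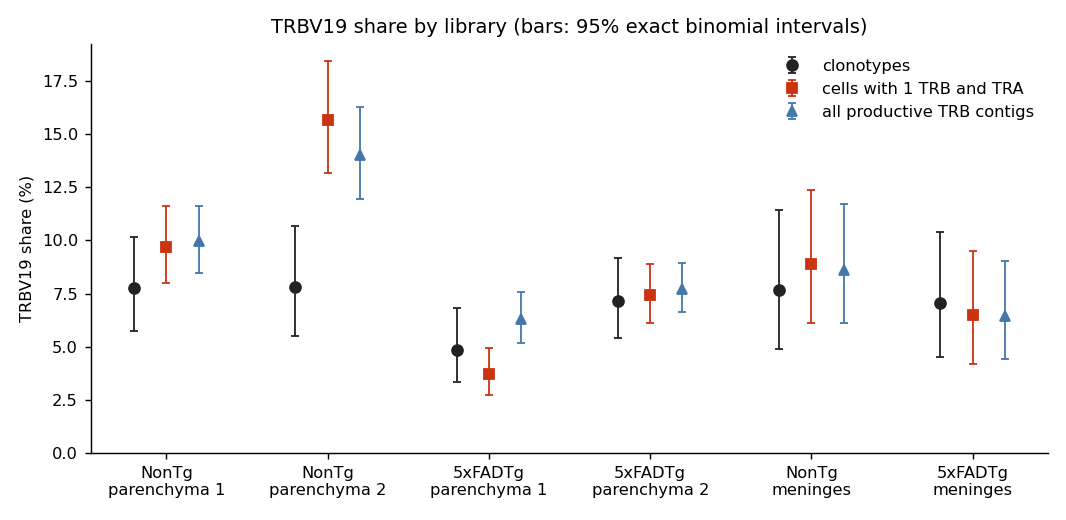
Share of TRBV19 (%) in each of the 6 libraries, as clonotypes (circles), cells with 1 TRB and a TRA (squares) and all productive TRB contigs (triangles), with 95% exact binomial intervals that cover counting error only. The clonotype shares run from 4.87 to 7.80%, while the share of paired cells reaches 15.7% in NonTg parenchyma library 2.

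The question of whether TRBV19 is used differently in the transgenic brain was put to the clonotypes of the 4 parenchyma libraries. The mean share was 6.01% ± 1.61 (SD, n = 2) in 5xFADTg and 7.78% ± 0.0278 (SD, n = 2) in NonTg, a difference of -1.77 percentage points with a two-sided exact permutation p of 0.333, the smallest that 2 against 2 libraries allow. Both 5xFADTg libraries lay below both NonTg libraries. The difference was -0.633 points without 5xFADTg parenchyma library 1 and -2.90 points without 5xFADTg parenchyma library 2. With clonotypes defined by TRB alone it was -1.35 points (exact permutation p 1), and the groups overlapped. edgeR's quasi-likelihood test over 118 V and J segments gave TRBV19 a log2 fold change of -0.35 (SE 0.24) with an adjusted p of 0.935. Of the 118 segments this test called 0 (0%), while 6 had an unadjusted p under 0.05. DESeq2 called 0 as well. Counted in paired cells, the shares were 9.69 and 15.7% in NonTg against 3.73 and 7.43% in 5xFADTg, a difference of -7.10 percentage points (exact p 0.333). A clone of 66 cells made up much of the highest of these values. Cells with 2 TRB chains are not paired cells here, which left out a TRBV19 clone of 33 cells in 5xFADTg parenchyma library 1. The largest TRBV19 clonotype among the paired cells of that library held 4 cells. In all productive TRB contigs, which include such cells, the difference was -4.95 points (exact permutation p 0.333), a comparison also added after the data were seen. Without the largest TRBV19 clonotype of each library, a comparison added after the data were seen, the paired-cell shares became 8.22 and 7.71% in NonTg and 3.41 and 5.61% in 5xFADTg, a difference of -3.46 points (exact p 0.333).

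Between the tissues, the mean share of clonotypes was 7.37% ± 0.450 (SD, n = 2) in meninges and 6.89% ± 1.38 (SD, n = 4) in parenchyma. The difference of 0.483 points had an exact permutation p of 0.933, where 0.133 is the smallest that 2 against 4 libraries allow. edgeR with genotype as a covariate gave TRBV19 a log2 fold change of 0.10 (SE 0.23) and an adjusted p of 0.953, and called 0 of 120 segments (0%). In edgeR 7 segments had an unadjusted p under 0.05, and DESeq2 called 0. The direction of this difference turned in paired cells (-1.45 points) and without 5xFADTg parenchyma library 1 (-0.191 points).

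Pooled over libraries, a larger share of TRBV19 clonotypes than of other clonotypes was expanded. Since the segment was chosen with its large clones known, this is a description with no test. Of the 215 TRBV19 clonotypes, 40 held 2 or more cells (18.6%, 95% exact interval 13.6 to 24.5), against 384 of 2893 clonotypes with another TRBV (13.3%, 12.1 to 14.6). By library, the expanded share of TRBV19 clonotypes was 21.3 and 22.9% in NonTg parenchyma, 18.8 and 19.6% in 5xFADTg parenchyma, 18.2% in NonTg meninges and 4.35% in 5xFADTg meninges. The other clonotypes gave 14.5, 13.3, 13.8, 16.5, 9.47 and 5.61% in the same order. TRBV19 was thus higher in 5 of 6 libraries, and 5xFADTg meninges, with 1 expanded TRBV19 clonotype of 23, was the exception. The edgeR fit gave TRBV19 a log2 fold change of 0.54 in expanded over 1-cell clonotypes. This contrast called 2.5% of 120 segments, namely TRAJ18, TRAV11 and TRBV13-2, all lower in expanded clonotypes. No verdict on TRBV19 is drawn from this contrast, because the segment was chosen with its clone sizes known.

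In 3 of the 6 libraries most TRBV19 cells belonged to expanded clonotypes. These held 64.1 and 77.5% of the paired TRBV19 cells in NonTg parenchyma 1 and 2, 42.2 and 58.3% in 5xFADTg parenchyma 1 and 2, 41.9% in NonTg meninges and 8.33% in 5xFADTg meninges. The other segments gave 50.2, 44.4, 53.6, 54.8, 24.8 and 17.3% in the same order. TRBV19 was thus higher in 4 libraries and lower in 5xFADTg parenchyma library 1 and 5xFADTg meninges. In NonTg parenchyma library 2, 66 of 120 paired TRBV19 cells (55.0%) carried the TRBJ2-1 chain with TRAV6-5-TRAJ30. That clone was the second largest of its library and held 8.62% of its paired cells. The next TRBV19 clones there had 9 cells (TRBJ1-4, TRAV6-6-TRAJ21) and 5 cells (TRBJ2-7, TRAV6-7-TRAJ34). In 5xFADTg parenchyma library 2, the largest was the TRBJ2-7 clone with TRAV9-4-TRAJ56, with 28 of 108 cells. It was followed by clones of 7 cells each with TRAV3-3-TRAJ22 (TRBJ2-5) and TRAV5-1-TRAJ24 (TRBJ2-7). NonTg parenchyma library 1 had a more even top in paired cells. It had 17 cells of the TRAV16-TRAJ33 clone (TRBJ2-1), 13 of the TRAV5-1-TRAJ33 clone (TRBJ1-2) and 10 of the TRAV9-1-TRAJ18 clone (TRBJ1-2). The beta chains of these clones stood in 34, 16 and 18 productive contigs, in the same order. Contigs also count cells without TRA, with 2 TRB chains or assigned another alpha chain. 5xFADTg parenchyma library 1 had no TRBV19 clonotype above 4 cells, and the 3 of that size had TRAV12-2-TRAJ34, TRAV9-3-TRAJ53 and TRAV12-3-TRAJ34. In NonTg meninges the largest were the TRAV9-1-TRAJ18 clone with 5 cells, the TRAV6-5-TRAJ30 clone with 4 and clones with TRAV5-4-TRAJ56 and TRAV5-1-TRAJ26 with 2 each. In 5xFADTg meninges only a TRAV9-2-TRAJ23 clone, with 2 cells, exceeded 1 cell.

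**Figure D2:**
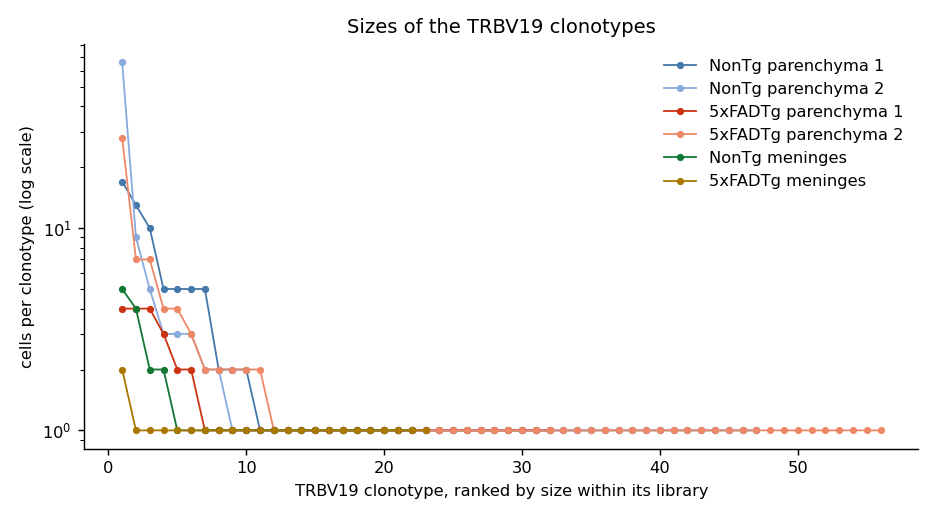
Cells per TRBV19 clonotype (log scale) against the rank of the clonotype within its library, with a line for each library. The steepest line belongs to NonTg parenchyma library 2, where the first clonotype has 66 cells, and 5xFADTg parenchyma library 1 starts at 4 cells.

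The clonotype count left out the largest TRBV19 clone of 5xFADTg parenchyma library 1, because its cells held 2 productive beta chains. This clone was singled out after its values were seen. In 33 cells of that library the TRBV19-TRBJ1-1 chain printed above stood together with a TRBV20-TRBJ1-1 chain, with a median of 9 UMIs for the former and 7 for the latter. A UMI is a molecular tag that marks 1 captured transcript. The CDR3 of the TRBV20 chain is given wholly in lower case, its junction not being marked.
TRBV20 chain of the same cells: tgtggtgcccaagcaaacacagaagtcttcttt
 The TRBV19 chain stood alone in 1 cell and the TRBV20 chain alone in 4 cells, and neither chain was found in another library. Of the 33 cells, 27 held a TRAV15-2-DV6-2-TRAJ2 alpha chain and 20 a TRAV9D-3-TRAJ9 chain, and 15 held 2 alpha chains. Cells with 2 or more TRB chains made up 44 of 105 TRBV19 cells in that library (41.9%) and 11 of 72 (15.3%) without the 33 cells. They made up 4.85% of its cells with other segments. A cell counted as a TRBV19 cell when either chain was TRBV19, so cells with 2 chains enter that set more readily. The 2 kinds of share are therefore not comparable, and no excess can be read from them. In the other libraries, cells with 2 or more TRB made up 17 of 146, 4 of 143, 20 of 169, 3 of 37 and 2 of 31 TRBV19 cells, in NonTg parenchyma 1 and 2, 5xFADTg parenchyma 2, NonTg meninges and 5xFADTg meninges. Of the cells with other segments, 6.48, 5.80, 5.66, 5.14 and 3.94% held 2 or more TRB, in the same order. Over all libraries the 90 such TRBV19 cells held 53 different combinations, of which 50 were seen in 1 cell. A smaller combination, a TRBV19-TRBJ2-3 chain with a TRBV5-TRBJ1-6 chain, recurred in 3 cells of 5xFADTg parenchyma library 1 and 1 cell of 5xFADTg meninges. No doublet caller was run, and the part of cell doublets in these combinations was not tested. In 5xFADTg parenchyma library 1 TRBV19 made up 3.73% of paired cells, 4.25% of cells with 1 TRB, with or without TRA, and 6.31% of all productive TRB contigs.

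Several TRBV19 clones were found in both tissues. In all, 13 TRBV19 clonotypes were shared by a meninges and a parenchyma library of the same genotype, and 0 were shared between genotypes or between the parenchyma libraries of a genotype. NonTg meninges shared 5 with NonTg parenchyma library 1 and 4 with library 2, and 5xFADTg meninges shared 2 with each 5xFADTg parenchyma library. The meninges library of a genotype therefore held clones of both of its parenchyma libraries. Of the NonTg meningeal TRBV19 clonotypes, 9 of 22 (40.9%, 95% exact interval 20.7 to 63.6) were present in NonTg parenchyma, against 57 of 264 others (21.6%, 16.8 to 27.0). In 5xFADTg the counts were 4 of 23 (17.4%, 4.95 to 38.8) and 40 of 303 (13.2%, 9.60 to 17.5). The intervals overlapped in both genotypes, and no test was made. Seen from the parenchyma, 10 of 35 expanded TRBV19 clonotypes (28.6%) and 3 of 135 of 1 cell (2.22%) were found in the meninges of the same genotype, against 19.6 and 1.51% of the others. The 5 with most cells were the clones with TRAV6-5-TRAJ30 (66 in parenchyma, 4 in meninges), TRAV9-4-TRAJ56 (28 and 1), TRAV16-TRAJ33 (17 and 1), TRAV9-1-TRAJ18 (10 and 5) and TRAV5-1-TRAJ33 (13 and 1), whose beta sequences are printed above. The library pairs shared 0 to 4 cell barcodes each, 23 in total, and no shared barcode held TRBV19 in both libraries.

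No TRBV19 beta chain was public across genotypes. The 215 clonotypes held 194 distinct beta nucleotide sequences and 193 distinct beta amino acid sequences, and only the TRBJ2-7 chain with TRAV6-7-TRAJ53 had 2 nucleotide spellings. It occurred in both NonTg parenchyma libraries, with the full germline end of TRBV19, and the spellings printed above differ in the last of the 5 junctional bases. In both libraries it was joined to a TRAV6-7-TRAJ53 alpha chain, but the alpha CDR3s were different sequences. The other beta sequences found in 2 libraries had the same nucleotides in both and were those shared between tissues.

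The junctions of TRBV19 kept a variable part of the germline end. All 16 germline bases were kept in 34 of 215 clonotypes (15.8%), while 47 kept 12 bases and 35 kept 11, so that the terminal isoleucine codon was often lost. The median insert between germline V and J bases was 10 bases (0 to 20). At position 5 of the CDR3, counted from the conserved cysteine, the germline isoleucine was found in 88 clonotypes (40.9%), proline in 29, methionine in 19, threonine in 14, arginine in 13 and alanine in 12. Of the 12 with alanine, 7 were expanded, against 16 of the 88 with isoleucine. The alanine count includes chains counted more than once, because the TRBJ1-2 chain of the TRAV9-1-TRAJ18 clone and a TRBJ2-1 chain with TRAV5-1 occurred in both NonTg parenchyma library 1 and NonTg meninges and with more than 1 alpha chain.

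The dipeptide tryptophan-glycine, which the germline TRBD2 segment (gggactgggggggc) encodes in reading frame 3, stood in 20 TRBV19 clonotypes (9.30%) and in 307 of the others (10.6%). It was joined to a TRBJ2 segment in 19 of the 20. In cells the motif weighed more, with 104 of 431 paired TRBV19 cells (24.1%), 66 of them from the TRAV6-5-TRAJ30 clone of NonTg parenchyma library 2, against 12.5% of the other cells. The D segment itself was named by the deposited annotation in 8 of the 632 contigs, 4 as TRBD1 and 4 as TRBD2.

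The beta CDR3 of TRBV19 clonotypes was on average shorter than that of other clonotypes in every library, though by a fraction of a residue. The mean length per library was 13.9 amino acids ± 0.120 (SD, n = 6) for TRBV19 and 14.0 ± 0.0820 (SD, n = 6) for other clonotypes. The difference of -0.144 amino acids had the same direction in 6 of 6 libraries, from -0.0201 in NonTg parenchyma library 2 to -0.257 in 5xFADTg parenchyma library 2. The exact two-sided sign-flip permutation p over libraries was 0.03125, the smallest that 6 libraries allow. It was 0.0938 after Benjamini-Hochberg adjustment over the 6 values of this family, so it did not pass the threshold. The meninges libraries shared clones with the parenchyma libraries of their genotype. For all values of this family the 6 libraries were therefore not fully independent units. At 17 amino acids there was 1 TRBV19 clonotype (0.465%) against 86 of the others (2.97%), and no TRBV19 clonotype was longer. Weighted by cells, the difference turned to 0.0525 amino acids.

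**Figure D3:**
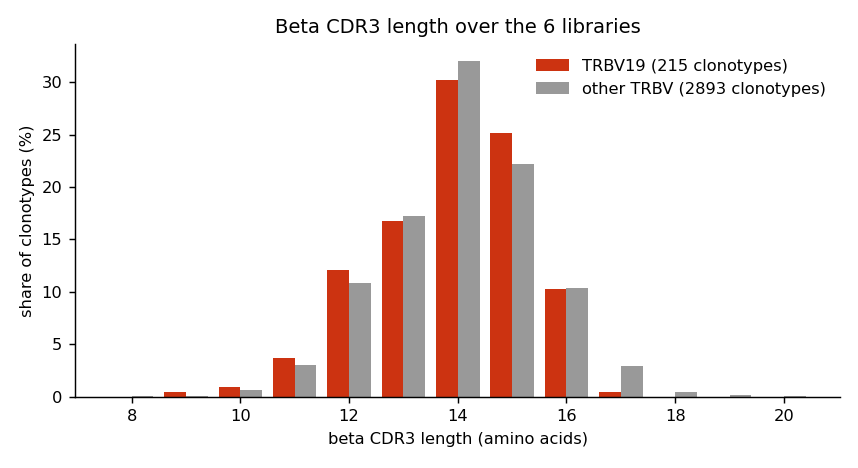
Share of clonotypes (%) by beta CDR3 length (amino acids) for the 215 TRBV19 clonotypes and the 2893 with another TRBV, pooled over the 6 libraries. Both peak at 14 amino acids, and TRBV19 has 1 clonotype of 17 and none longer.

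The alpha CDR3 of TRBV19 clonotypes differed by -0.0665 amino acids on average (exact permutation p 0.625, adjusted 0.750), lower in 4 of 6 libraries. Cells without a productive TRA made up 18.9% ± 7.23 of TRBV19 cells with 1 TRB and 16.6% ± 4.82 of the others (SD, n = 6, exact permutation p 0.344, adjusted 0.516), higher in 4 of 6 libraries. An additional TRA chain was found in 13.8% ± 8.01 of paired TRBV19 cells and 8.86% ± 1.40 of the others (SD, n = 6, exact permutation p 0.219, adjusted 0.438), higher in 4 of 6. None of these differences passed the threshold. The 2.32-point gap in cells without TRA was 0.634 points without 5xFADTg parenchyma library 1, 1.45 with at least 2 UMIs per chain and 4.34 with 1 cell per clonotype. The 4.98-point gap in cells with an additional TRA was 2.83 points without NonTg meninges, 7.51 without NonTg parenchyma library 2 and 2.02 with 1 cell per clonotype. The number of molecules behind a TRBV19 chain was a median of 7 UMIs per cell in the 4 parenchyma libraries, 8 in NonTg meninges and 5 in 5xFADTg meninges, against 8, 9 and 8 for the other segments. This was lower in 6 of 6 libraries, by 1.33 UMIs on average (exact permutation p 0.03125, adjusted 0.0938), and did not pass the threshold.

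The split of a clone over 2 alpha chains bears on the size of some TRBV19 clonotypes. Of 207 beta sequences counted per library, 8 were found with 2 alpha chains as the top alpha of different cells, and these held 43 cells. For the TRBJ1-2 chain of the third largest clone of NonTg parenchyma library 1, 10 cells were assigned TRAV9-1-TRAJ18 and 5 cells TRAV13-1-TRAJ32, and 11 of the 15 cells held 2 TRA chains. For a TRBJ2-1 chain there, 5 cells each were assigned TRAV5-1-TRAJ26 and TRAV5-1-TRAJ27, and 6 of the 10 held 2 TRA chains.

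TRBV19 was joined to all 12 TRBJ segments seen in these libraries. TRBJ2-1 and TRBJ2-7 each took 40 of the 215 clonotypes, followed by TRBJ1-1 with 23, TRBJ2-5 with 19 and TRBJ1-4 with 17. The clonotypes with a TRBJ1 segment made up 36.3% of TRBV19 and 34.6% of other clonotypes. Every paired TRBV19 cell with a C label followed the cluster order of the locus, 125 cells with TRBJ1 and TRBC1 and 305 with TRBJ2 and TRBC2.

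TRBJ2-1 was the J segment with the largest gap in percentage points. Its share of TRBV19 clonotypes was 21.3, 20.0, 21.9, 12.5, 27.3 and 13.0% in NonTg parenchyma 1 and 2, 5xFADTg parenchyma 1 and 2, NonTg meninges and 5xFADTg meninges. The other clonotypes of these libraries gave 15.2, 8.21, 13.3, 11.8, 9.85 and 7.26%. TRBV19 was higher in 6 of 6 libraries, although the ranges over libraries overlapped. Some TRBJ2-1 clones were found in both tissues of a genotype and so count in more than 1 library. The log2 fold change was 0.71 (SE 0.26), and edgeR's adjusted p of 0.174 did not pass the threshold. With each beta chain counted once per genotype, an alternative added after the data were seen, the log2 fold change was 0.57 (SE 0.28, edgeR adjusted p 0.538). Among the lesser used segments TRBJ1-6, singled out after its values were seen, took 5.66% ± 2.08 of TRBV19 clonotypes and 2.66% ± 0.405 of the others (SD, n = 6). It was also higher in 6 of 6 libraries, with a log2 fold change of 1.06 (SE 0.53) and an edgeR adjusted p of 0.431. TRBJ2-7 (18.9% against 20.1%), TRBJ1-1 (9.90% against 11.5%), TRBJ2-5 (8.06% against 10.9%) and TRBJ1-4 (7.77% against 6.12%) had edgeR adjusted p-values of 0.821 to 0.932.

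**Figure D4:**
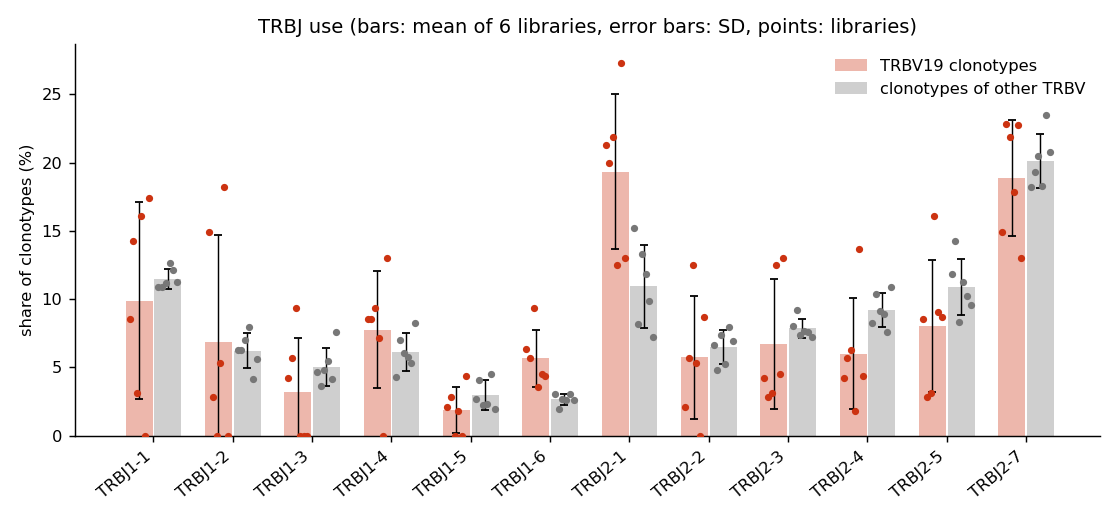
Share of clonotypes (%) joined to each TRBJ segment for TRBV19 (red) and other TRBV (grey) clonotypes, as means of 6 libraries (bars), SD (error bars, drawn down to 0 at most) and libraries (points). TRBJ2-1 has means of 19.3% for TRBV19 and 10.9% for the others.

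The alpha partners of TRBV19 were diverse. The 215 clonotypes used 42 of 48 TRAV and 38 of 43 TRAJ segments in 174 combinations, 141 of which occurred in 1 clonotype only. The most frequent TRAV segments were TRAV16 with 18 clonotypes, TRAV12-2 with 14, TRAV6-7 with 11, TRAV12-3 with 10 and TRAV6-5 with 9. The most frequent TRAJ segments were TRAJ23 and TRAJ30 with 13 each and TRAJ22 with 12, followed by TRAJ26, TRAJ27, TRAJ33, TRAJ48 and TRAJ56 with 9 each. The first 5 of each kind, ties taken in order of name, had edgeR adjusted p-values of 0.567 to 0.959 against the other clonotypes. TRAV16, for example, took 8.02% ± 2.43 of TRBV19 and 5.59% ± 0.891 of other clonotypes (SD, n = 6, log2 fold change 0.61, SE 0.44, edgeR adjusted p 0.622). The most frequent combination, TRAV6-5 with TRAJ30, occurred in 5 clonotypes of 4 libraries and included the clone of 66 cells. Weighted by cells, that clone raised the mean share of TRAV6-5 from 4.62 to 14.1% and that of TRAJ30 from 6.08 to 15.3%.

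Of 99 TRBJ, TRAV and TRAJ segments tested within libraries against the other clonotypes, 3 passed the threshold (3.03%), 1 higher (1.01%) and 2 lower (2.02%) with TRBV19. TRAV11, the V segment of the iNKT alpha chain, was found in 1 of 215 TRBV19 clonotypes and in 170 of 2893 others (5.88%). By library it took 3.04, 3.62, 4.32, 7.97, 5.68 and 12.5% of the others in the order used above, and TRBV19 was at 0 in all but NonTg meninges. The ratio of the pooled shares was 0.0792 (95% exact interval of the counts 0.00199 to 0.447), and edgeR's adjusted p was 0.0366. The only TRBV19 clonotype with TRAV11 was iNKT-like (joined to TRAJ18, with TRBJ2-5 on the beta chain), in 1 cell of NonTg meninges, against 164 iNKT-like clonotypes with other TRBV. TRAJ12 was found in 0 of 215 TRBV19 clonotypes, which allows a share of up to 1.40%, and in 87 of 2893 others (3.01%). That limit is the one of 3 counts over all libraries. The ratio of the pooled shares of TRAJ12 had a 95% exact interval of the counts of 0 to 0.583 (edgeR adjusted p 0.0449). The share in the others was 2.61 to 4.62% per library, and the TRBV19 clonotypes of a library, 22 to 56, were too few to show such a share each. Both were also called lower with TMM factors and in DESeq2. Those 2 fits moved the median log2 fold change of all partner segments from -0.06 to -0.64 and -0.63, so they favour lower calls. Neither was called with at least 2 UMIs per chain (edgeR adjusted p 0.0772 for each). The TRAV11 call was also lost in cells (adjusted p 0.0544). The TRAJ12 call was lost with TRAV copies kept apart (adjusted p 0.0764) and with each beta chain counted once per genotype (0.110). It was also lost without iNKT-like receptors (0.0827), and the last 2 fits were added after the data were seen. Without iNKT-like receptors its log2 fold change was -5.99, against -5.97 in the main fit. The unadjusted edgeR p-values were 0.000844 and 0.00118, so only the adjusted p rose.

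TRAV5-1 was the segment called higher with TRBV19, in 8 of 215 clonotypes (3.72%) against 24 of 2893 (0.830%), with a log2 fold change of 2.13 (SE 0.66) and an edgeR adjusted p of 0.0449. It took 8.51, 2.86, 0, 1.79, 9.09 and 0% of TRBV19 clonotypes by library and 0.716, 0.483, 1.28, 0.549, 0.758 and 1.32% of the others. TRBV19 was higher in 4 of 6 libraries, while 5xFADTg parenchyma library 1 and 5xFADTg meninges had no TRBV19 clonotype with it. The 8 clonotypes held 5 distinct beta chains, since the TRBJ1-2 chain printed above and a TRBJ2-1 chain occurred in both NonTg parenchyma library 1 and NonTg meninges, and the latter chain also with 2 alpha chains. The alpha J segments were TRAJ33, TRAJ26 and TRAJ27 for these, and TRAJ6, TRAJ37 and TRAJ24 for the others. With each beta chain counted once per genotype, an alternative added after the data were seen, TRAV5-1 was found in 5 of 194 TRBV19 clonotypes and 22 of 2727 others, and its edgeR adjusted p was 0.509. Of the 8 clonotypes 6 were expanded, and they held 37 of the 431 paired TRBV19 cells. TRAJ53 (1.58 on the log2 scale, SE 0.61) and TRAJ31 (-1.85, SE 0.77) came nearest among the alpha segments that did not pass, with edgeR adjusted p-values of 0.224 and 0.245.

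The calls rested on few clonotypes. With 1 library left out, the number of partner segments called fell to 0 or 1. Without NonTg parenchyma library 1, NonTg parenchyma library 2, 5xFADTg parenchyma library 2 or 5xFADTg meninges it was 0, without 5xFADTg parenchyma library 1 it was 1 (TRAV5-1) and without NonTg meninges it was 1 (TRAV11). TRAV11 and TRAV5-1 kept their direction in all of these fits. TRAJ12 kept its direction as well, which was fixed in advance by its 0 TRBV19 clonotypes.

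**Figure D5:**
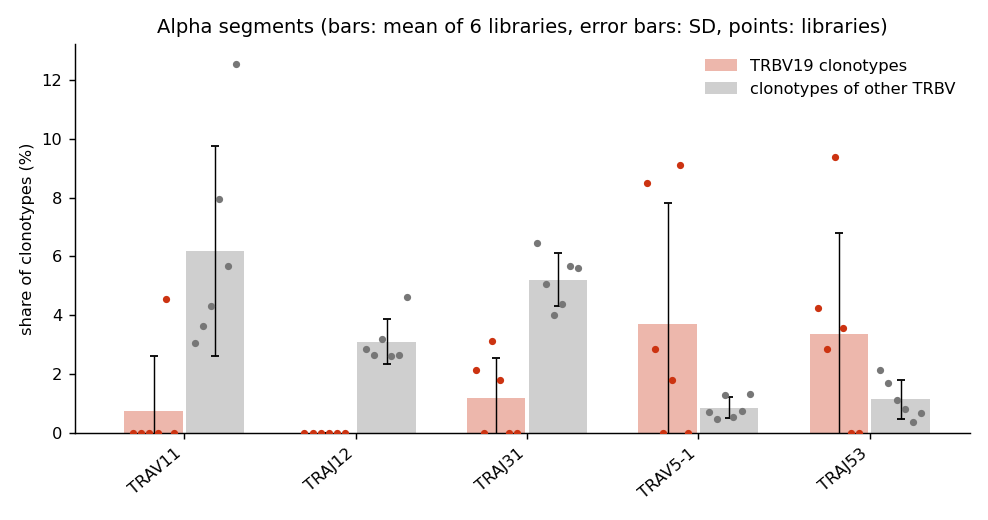
Share of clonotypes (%) with 5 alpha segments for TRBV19 (red) and other TRBV (grey) clonotypes, as means of 6 libraries (bars), SD (error bars, drawn down to 0 at most) and libraries (points). TRAJ12 is at 0 in all 6 TRBV19 sets, and the TRBV19 points of TRAV5-1 spread from 0 to 9.09%.

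MAIT-like receptors, defined as TRAV1 joined to TRAJ33 with an alpha CDR3 of 12 amino acids, were few. TRBV19 was the beta segment of 4 of the 23 MAIT-like clonotypes, behind TRBV13-3 with 10. In NonTg parenchyma library 1 there were 3, joined to TRBJ2-1, TRBJ1-2 and TRBJ2-7 and all with the same alpha CDR3 amino acid sequence, and 5xFADTg parenchyma library 2 held 1, with TRBJ2-3. Each was seen in 1 cell. They made up 6.38% of TRBV19 clonotypes in the former library, 1.79% in the latter and 0 in the other 4, against 0 to 0.966% of the other clonotypes. The difference of 0.741 points was positive in 2 libraries and negative in 3, with an exact permutation p of 0.812 (adjusted 0.812).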

How the data were processed

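Receptor sequences were measured in 6 single-cell libraries prepared with a 10x Chromium kit for single-cell immune profiling (version 2, per the labels' protocols), and Cell Ranger 6.0 and mm10 are named in the submitters' processing notes. The deposited contig tables give read and UMI counts per contig, with V, D, J and C labels and CDR3 sequences assigned by the authors. The libraries held 15827899 to 26710709 reads and 49997 to 128700 UMIs over all contigs. Productive contigs were kept. Clonotypes were built from cells that held a TRA and no more than 1 TRB, using the TRA with most UMIs, and D and N copies of TRAV segments were joined. Cells with 2 or more TRB entered contig shares only. Doublets were not called.

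Clonotypes per segment were tested with edgeR 4.0.16 (quasi-likelihood test with library size set to the total of clonotypes, on segments with 10 or more, Benjamini-Hochberg over all segments, threshold 0.05). DESeq2 1.42.0 served as an alternative, and both ran in R 4.3.3. Single values were tested by exact permutation or sign-flip tests, and intervals are exact Clopper-Pearson at 95% (scipy 1.17.1). The edgeR test recovered known changes in simulated data, but these were set in well used segments only. Segments with few clonotypes, TRAV5-1 among them, were not covered by the simulation. The labels do not say whether equal replicate numbers mark a shared preparation, so the main tests did not pair libraries by them. Germline ends and coordinates came from GENCODE release M21 (GRCm38, the Genome Reference Consortium name of mm10). The named segments are TRBV19, its nearest TRBV by share and rank, partner segments past the threshold, the 5 most used of each kind, the 3 with the smallest p each way, the 3 largest clonotypes of each library and the 5 largest found in both tissues. The segment, lists and tests were chosen with earlier results of these data known.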

Additional observations from a re-analysis of the deposited data

Results flagged for a closer look

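Nonproductive TRBV19 contigs lay outside all comparisons and numbered 66 of 3675 nonproductive TRB contigs. They had a median of 2 UMIs, and 26 of them had no CDR3. A CDR3 that begins with cysteine and 2 glutamines was listed for 27 of the 66, in 12 sequences. These letters are the TRBV19 junction read 2 bases further on, and 9 to 14 of its germline bases were matched. A TRBJ1-1 sequence of this kind was in 10 contigs of 5xFADTg parenchyma library 2, each in a cell whose productive beta chain was the same TRBV5 chain. A TRBJ2-3 sequence was in 7 contigs of NonTg parenchyma library 1, in cells with 3 different productive beta chains or none. Nonproductive TRBV10 contigs held 26 with such a start, so the start is not particular to TRBV19.

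The 33 cells of 5xFADTg parenchyma library 1 with a TRBV19-TRBJ1-1 and a TRBV20-TRBJ1-1 chain lay outside the clonotype comparisons, which use cells with 1 TRB.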

How the results depend on the processing

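The TRBV19 difference between 5xFADTg and NonTg parenchyma kept its sign and stayed short of the threshold in the 9 alternatives and 4 leave-outs run, with log2 fold changes from -1.18 (cells) to -0.12. The replicate block gave -0.38 with an adjusted p of 0.925, and deviations of same-numbered libraries correlated at 0.0289 over 120 segments. The tissue difference reversed without 5xFADTg parenchyma 1 (-0.0163), without 5xFADTg meninges (-0.0151), with TRB alone (-0.00529) and in cells (-0.148), and its leave-outs ran from -0.0163 to 0.21. In percentage points it reversed in cells (-1.45), in contigs (-1.96) and without 5xFADTg parenchyma 1 (-0.191, with leave-outs up to 0.801). The log2 fold change of TRBV19 in expanded over 1-cell clonotypes, a description, was 0.54 and ran from 0.23 (TMM) to 0.81 (expanded from 3 cells).

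Partner segments called numbered 3, but 6 with TMM factors, 0 with at least 2 UMIs per chain, 1 with TRAV copies kept apart, 2 in DESeq2 and in cells, 1 with each beta chain once, 0 without iNKT-like receptors and 0 to 1 in leave-outs. TMM moved the median log2 fold change of all partner segments from -0.06 to -0.64, and DESeq2 moved it to -0.63. Relative to the median TRBJ2-1 stood at 0.77 in the main fit and 0.75 under TMM. TRAV5-1 missed the threshold under TMM (adjusted p 0.167) and DESeq2 (0.493). Relative to the median it stood at 2.18 in the main fit, 2.13 under TMM and 2.02 in DESeq2. Beta CDR3 length reversed in cells (0.0525), alpha length in cells (0.221) and without NonTg meninges (0.0202, with leave-outs down to -0.136), and the MAIT-like difference without NonTg parenchyma 1 (-0.280, with leave-outs up to 1.08). The cause of these changes was not tested. With 22 to 56 TRBV19 clonotypes per library, segments used by few of them were near the limit of detection.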
